A study of Homo sapiens with 24 samples.

Results

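Molecular chaperones and cochaperones of the heat shock families were followed in Hodgkin lymphoma lines given AEZS-136, a dual inhibitor of PI3K and ERK signalling, for 2 h. The genes were taken by their symbols. All probes of the Illumina bead array were taken whose symbol began with HSPA, HSPB, HSPD, HSPE, HSPH, HSP90 or DNAJ, or was BAG1 to BAG5, and the endoplasmic reticulum genes HSPA5, HSP90B1, DNAJB9, DNAJB11, DNAJC3 and DNAJC10 were left out. This gave 119 probes of 75 genes, out of 47323 probes on the array, of which 30113 carried 1 gene symbol. The group is wider than the cytosol. It also holds mitochondrial proteins (HSPD1, HSPE1, HSPA9, DNAJA3, DNAJC11, DNAJC15, DNAJC19 and DNAJC30). Further members belong to the endoplasmic reticulum, among them the J proteins DNAJB12, DNAJB14 and DNAJC1 and the HSP70 HSPA13. HSPBAP1 is no chaperone but a protein named for binding HSPB1.

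The 24 arrays formed 8 groups of 3. The lines SUP-HD1, L-540, KM-H2 and L-428 each received 10 µM AEZS-136 for 2 h, and their control cells were kept for the same 2 h. The vehicle of the controls was DMSO by the methods. All 4 are established lines. In the study L-540 and SUP-HD1 are the sensitive pair, in which the compound kills cells, and KM-H2 with L-428 are the resistant pair. A pair is 2 lines. Whether arrays of 1 group represent different cultures is not labelled, so p-values measure only how much these arrays vary, possibly for technical reasons. A list of 7 Hodgkin markers was looked up in every group. IRF4, TRAF1 and FUT4 were detected on all 3 arrays of each group, whereas TNFRSF8, which encodes CD30, was detected on all 3 arrays only in the groups of L-540. CD40 was detected on all 3 arrays of every group outside L-540, CCL17 of every group but L-540 with AEZS-136, and CCL22 of none.

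HSP70 proteins bind exposed hydrophobic stretches of unfolded proteins in a cycle driven by ATP. J-domain proteins (the DNAJ families) bring substrates and trigger ATP hydrolysis, BAG proteins and the HSP110 relatives release the nucleotide, and HSP90 takes over clients such as kinases and steroid receptors. In mammalian cells, heat shock factor 1 (HSF1) drives the inducible members by binding inverted repeats of the bases GAA, the heat shock element.

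The promoters of the genes were read for this element. Windows of 300 bases, 250 before and 50 after the annotated start, came from RefSeq (GRCh38.p14), and 87 windows of 65 of the 75 genes were at hand. A strict element of 3 units (GAA, TTC and GAA, or TTC, GAA and TTC, with any 2 bases between units, on either strand, where copies can overlap) stood in 7 of the 87 windows (8.05%), against 172 of 35116 windows of all genes (0.49%). The 7 genes were HSPA8, DNAJA1, HSP90AA1, HSP90AB1, HSPD1, HSPA6 and DNAJB6. A loose element of 2 such units, which every strict one contains, stood in 24 of 87 (27.6%) windows of the group and in 13.5% of all windows. The windows of the constitutive HSP70 gene HSPA8 (chr11:123062087-123062386, minus strand), the inducible HSP70 gene HSPA1B (chr6:31827488-31827787, plus strand) and the inducible J protein gene DNAJB1 (chr19:14518348-14518647, minus strand) are shown because these 3 genes carry the falls described below, with strict and loose elements in capitals.
HSPA8: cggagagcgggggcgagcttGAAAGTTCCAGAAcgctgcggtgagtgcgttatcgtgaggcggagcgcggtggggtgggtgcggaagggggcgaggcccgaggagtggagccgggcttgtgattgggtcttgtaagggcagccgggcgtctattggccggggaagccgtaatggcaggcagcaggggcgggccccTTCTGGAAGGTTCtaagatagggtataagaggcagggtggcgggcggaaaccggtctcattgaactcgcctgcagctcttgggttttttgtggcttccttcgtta
HSPA1B: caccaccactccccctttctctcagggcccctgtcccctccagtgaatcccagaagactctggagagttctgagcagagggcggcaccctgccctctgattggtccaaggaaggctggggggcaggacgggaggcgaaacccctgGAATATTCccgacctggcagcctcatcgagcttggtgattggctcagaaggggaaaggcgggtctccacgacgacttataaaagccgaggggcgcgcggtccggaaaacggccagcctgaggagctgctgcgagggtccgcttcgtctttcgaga
DNAJB1: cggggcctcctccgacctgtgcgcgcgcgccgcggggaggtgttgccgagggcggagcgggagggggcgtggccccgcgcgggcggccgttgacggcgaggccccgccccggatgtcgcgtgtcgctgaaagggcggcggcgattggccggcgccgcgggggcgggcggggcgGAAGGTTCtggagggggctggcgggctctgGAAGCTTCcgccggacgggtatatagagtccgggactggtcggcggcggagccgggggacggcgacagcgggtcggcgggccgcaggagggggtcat

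HSPA8 held 2 strict elements, with their first bases at positions -230 and -55 from the start, whereas HSPA1B held 1 loose element, the DNAJB1 window shown (1 of 3 windows of that gene) held 2, and the window of BAG3 held neither kind. Every unit had to match exactly. Where a further GAA would stand, the HSPA1B element is followed by gac and the first DNAJB1 element by gag, and such imperfect units were not counted. The strict elements of 4 further genes are given with 4 bases on each side for comparison, because these genes share the element with HSPA8. Their first bases lie at -88 in HSP90AA1, -112 in HSP90AB1, -240 in HSPD1 and 4 in DNAJA1. HSP90AB1 and HSPD1 each held another strict element, at -165 and -245.
HSP90AA1: gttcTTCCGGAAGGTTCggga
HSP90AB1: attgTTCTGGAAGCTTCtgga
HSPD1: tctgGAAAGTTCTGGAAccga
DNAJA1: ggcgGAACTTTCCAGAAcgct

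Levels are given below as background-corrected, quantile-normalized log2 intensities, so a difference of 1 is a 2-fold difference, and levels of different probes are not comparable. A probe was tested if its detection p was under 0.05 on at least 3 arrays. Of the 119 probes 93 passed, covering 65 genes, and 65 probes were detected on all 24 arrays. All probes of DNAJB7, DNAJB8, DNAJB13, HSPA2, HSPA12B, HSPB2, HSPB6, HSPB7, HSPB8 and HSPB9 failed. Detected probes numbered between 16876 and 19524 per array and median signals lay between 96.0 and 127.9, with 3 arrays per group limiting the precision. Changes are AEZS-136 minus control, tested with limma across all 24578 probes with Benjamini-Hochberg adjustment, and a probe was called when its adjusted p was under 0.05 and its absolute change was above 0.4.

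In KM-H2, 9 member probes rose and 11 fell, which is 21.5% of the 93, where 11.2% of all tested probes were called (6.47% rose and 4.75% fell). In L-428, 5 rose and 9 fell (15.1%, against 7.27% of all probes, 4.05% up and 3.22% down). In L-540, 6 rose and 7 fell (14.0%, against 9.06%, 5.53% up and 3.53% down), and in SUP-HD1 3 rose and 6 fell (9.68%, against 6.54%, 2.94% up and 3.6% down). The mean of the 4 lines, which a large change in 1 line can carry, had 5 rises and 9 falls (15.1%, against 6.69%), and the 9 falls made up 9.68% of the members where 2.47% of all probes fell, and the 5 rises 5.38% where 4.22% rose. In at least 1 line 18 member probes fell (19.4%, against 10.5% of all probes) and 11 rose (11.8%, against 11.4%). The median change of the members was -0.03 in the mean of lines, against -0.01 for all probes. The members were detected more often, 65 of 93 on all 24 arrays, against 12101 of 24578 for all probes. Among these 65 members 17 were called in KM-H2, 11 in L-428, 11 in L-540, 10 in SUP-HD1 and 11 in the mean. Of the 12101 probes 1941, 1270, 1450, 1236 and 1043 were called, a larger share than among all tested probes. The remaining 64 member probes (68.8%) were called in no line and not in the mean, as were 78.0% of all probes.

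The split between rises and falls depended on how arrays were scaled. With medians aligned in place of whole distributions, the members had 8 rises and 4 falls in KM-H2, 1 and 7 in L-428, 5 and 2 in L-540, and 6 and 5 in the mean. Rises were then 66.7%, 12.5%, 71.4% and 54.5% of the called members. Of all called probes they were 88.5%, 46.0%, 82.6% and 79.7%, against 57.7%, 55.7%, 61.0% and 63.0% in the main fit, so all probes shifted too. On the authors' normalized values the members had 3 rises and 6 falls in KM-H2, 2 and 6 in L-428, and 2 and 6 in the mean. There 63.9%, 66.0% and 70.1% of all called probes rose. Quantile normalization without background correction gave 2 and 6 in L-428, where 64.7% of all called probes rose. None of the 73 called member values changed sign in any setting, but their size and call depended on the background correction. Of 56 called changes in single lines 24 were no longer called on the authors' values and 20 without background correction, and 25 and 21 were smaller by over 1.5 times. Of 14 in the mean, 7 lost their call in either setting. Median scaling ended 25 of the 56 and 4 of the 14. Export sets of 12 arrays were read from a run of shifted rows in the deposited signals. Within a set each group kept only 1 or 2 arrays, so calls in single lines were not compared there. By size, set 1 made 4 of the 56 changes smaller and 1 larger by over 1.5 times. Set 2 made 2 of the 56 smaller. Of the 14 in the mean, 0 were smaller by that factor in set 1 and 1 in set 2.

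**Figure D1:**
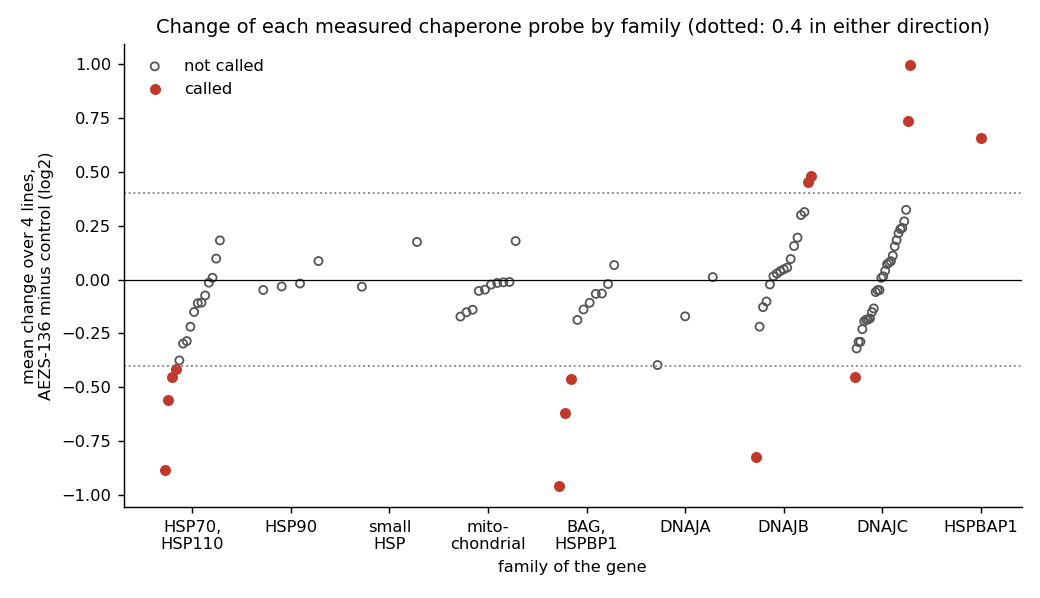
Each circle is 1 of the 93 tested probes, placed by the family of its gene (x axis) and its change with AEZS-136 averaged over the 4 lines (y axis, log2, AEZS-136 minus control); filled circles were called and dotted lines mark 0.4 in either direction. The called HSP70 and BAG probes lie below the axis, DNAJB and DNAJC hold calls on both sides, and HSP90 and the chaperones sorted as mitochondrial (DNAJC11 and DNAJC30 stand with DNAJC) lie between the dotted lines.

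The HSP70 and HSP110 families held only falls. Of 16 tested probes of 12 genes, 4 fell in KM-H2, 4 in L-428, 3 in L-540, 3 in SUP-HD1 and 4 in the mean of lines, and 0 rose in any of these, where 2.47% of all probes fell in the mean. The median change of the 16 probes in the mean was -0.19. The 4 falls in the mean were of 3 genes, namely HSPA8 with 2 probes, HSPA1B and HSPA1L. By line HSPA1L was called in L-540 alone. HSPA1B, the stress-inducible HSP70, fell in every line. Its level in KM-H2 was 11.52, 11.49 and 11.44 with AEZS-136, against 12.06, 12.10 and 12.28 in the control. In L-428 it was 9.94, 9.85 and 9.97 with AEZS-136, against 11.02, 11.13 and 11.11 in the control. In L-540 the 3 values were 11.01, 11.06 and 10.96 with AEZS-136, against 11.43, 11.44 and 11.45 in the control, and in SUP-HD1 they were 9.51, 9.52 and 9.46 with AEZS-136, against 10.68, 10.82 and 10.83 in the control. In each line every treated array lay below every control array. The change was -0.66 ± 0.0745 (SE, adjusted p = 2.60e-06) in KM-H2, -1.17 ± 0.0745 (SE, adjusted p = 1.98e-09) in L-428, -0.43 ± 0.0745 (SE, adjusted p = 4.09e-04) in L-540 and -1.28 ± 0.0745 (SE, adjusted p = 6.57e-10) in SUP-HD1 by limma. In SUP-HD1 this is a level 2.42-fold lower with AEZS-136 than in the control. The mean over lines was -0.88 ± 0.0373 (SE, adjusted p = 4.42e-13). The mean was -0.93 (adjusted p = 3.50e-04) within export set 1 and -0.85 (adjusted p = 0.00143) within export set 2. With median scaling the L-540 change was -0.38 (adjusted p = 0.421) and no longer called.

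The near-identical gene HSPA1A gave a signal in 1 line. Its probe was detected on all 6 arrays of KM-H2 and on 0 of the 18 arrays of the other lines. In KM-H2 it stood at 10.26, 10.21 and 10.37 with AEZS-136, against 11.17, 10.90 and 11.18 in the control. All treated values lay below the control values, and the change was -0.80 ± 0.124 (SE, adjusted p = 1.08e-04) by limma. HSPA1A and HSPA1B encode the same protein from near-identical genes, so a probe of either may read both transcripts. The HSPA1A probe was at most 4.86 in the 3 lines where the HSPA1B probe read between 9.46 and 11.45, so it gave no detected signal there. Whether the HSPA1B probe reads HSPA1A in KM-H2 was not tested. HSPA1L, a relative that is known from testis, lies beside HSPA1A, and the RefSeq promoter windows of both overlap on opposite strands of chromosome 6 (31815234 to 31815533 for HSPA1L and 31815293 to 31815592 for HSPA1A). HSPA1L was detected on 1 of 3 treated and 3 of 3 control arrays of L-540, where it read 4.89, 5.23 and 4.79 with AEZS-136, against 6.65, 6.30 and 6.43 in the control. The 2 groups did not overlap, and the change was -1.50 ± 0.177 (SE, adjusted p = 5.97e-06). It was smaller, and still called, at -0.55 on the authors' values and -0.56 without background correction. In KM-H2 it was detected on 0 of 6 arrays, and its changes were -0.26 in KM-H2, -0.18 in L-428 and -0.30 in SUP-HD1, none called, and the mean of lines was called (-0.56, SE 0.0884, adjusted p = 5.99e-05 by limma). That call ended at -0.21 on the authors' values and -0.21 without background correction, and within export set 2 at -0.47 (adjusted p = 0.0786).

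**Figure D2:**
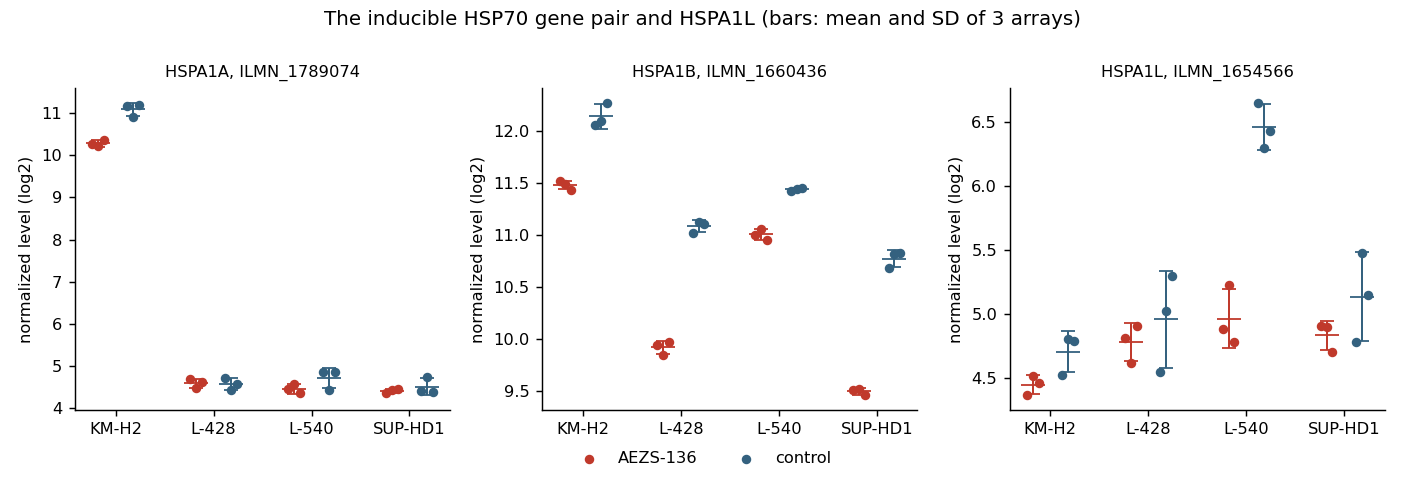
Normalized log2 level (y axis, a separate scale for each probe) of HSPA1A, HSPA1B and HSPA1L on each array by cell line (x axis), AEZS-136 in red left of its control in blue, with the mean and SD of the 3 arrays. HSPA1A reads between 10.21 and 11.18 in KM-H2 and at most 4.86 in the other lines, HSPA1B is lower with AEZS-136 in all 4 lines, and HSPA1L is above 6 only in the L-540 control.

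HSPA8, the constitutive HSC70, was measured by 2 probes that gave like changes. On ILMN_2413084 KM-H2 read 13.32, 13.31 and 13.11 with AEZS-136, against 13.84, 13.76 and 13.65 in the control, and L-428 read 13.27, 13.37 and 13.31 with AEZS-136, against 13.88, 13.85 and 13.82 in the control. L-540 read 13.86, 13.85 and 13.82 with AEZS-136, against 14.05, 14.02 and 14.22 in the control, and SUP-HD1 read 13.09, 13.19 and 13.13 with AEZS-136, against 13.69, 13.54 and 13.72 in the control. Treated and control arrays did not overlap in any line. The changes were -0.50 ± 0.0826 (SE, adjusted p = 1.97e-04), -0.53 ± 0.0826 (SE, adjusted p = 2.03e-04), -0.26 ± 0.0826 (not called) and -0.52 ± 0.0826 (SE, adjusted p = 3.01e-04) in the same order by limma, with a mean of -0.45 ± 0.0413 (SE, adjusted p = 4.58e-08). The other probe, ILMN_1686367, also had no overlap in any line and was called in L-428 (-0.59), SUP-HD1 (-0.53) and the mean (-0.41, SE 0.0474, adjusted p = 9.86e-07 by limma), with -0.36 in KM-H2 and -0.18 in L-540. Its mean was close to the minimum change and read -0.40 without L-428 AEZS-136 replicate 3 and -0.38 without L-540 control replicate 3, which ended that call. The mean of ILMN_2413084 was -0.45 (adjusted p = 0.00731) within export set 1 and -0.43 (adjusted p = 0.00998) within export set 2. With median scaling both means missed the minimum change, at -0.38 (adjusted p = 0.002) and -0.34 (adjusted p = 0.00916), and the calls of ILMN_2413084 in KM-H2 (-0.38, adjusted p = 0.222) and of both probes in SUP-HD1 (-0.38, adjusted p = 0.315 and -0.37, adjusted p = 0.365) ended.

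Among the HSP110 relatives, which exchange nucleotide on HSP70, HSPA4L fell in KM-H2 and L-428. It stood at 6.56, 6.74 and 6.73 with AEZS-136, against 7.06, 7.21 and 7.06 in the control in KM-H2, and at 8.66, 8.29 and 8.49 with AEZS-136, against 8.84, 9.01 and 8.88 in the control in L-428. Its changes were -0.44 ± 0.127 (SE, adjusted p = 0.0232) in KM-H2, -0.44 ± 0.127 (SE, adjusted p = 0.0335) in L-428, -0.39 in L-540 and -0.24 in SUP-HD1, the last 2 not called. Leaving out 1 of 2 arrays ended the KM-H2 call (control replicate 2 or AEZS-136 replicate 1, with -0.39 and -0.38), and leaving out any 1 of 5 of the 6 L-428 arrays ended that of L-428 (-0.47 to -0.34). Both calls also ended with median scaling, at -0.22 (adjusted p = 0.693) and -0.57 (adjusted p = 0.148), and on the authors' values, at -0.25 and -0.35. The HSPA4 probe ILMN_1734814 was not called, with treated arrays below all controls in KM-H2 (-0.25), L-428 (-0.48) and L-540 (-0.38) but overlapping in SUP-HD1 (0.24), and the other HSPA4 probe had a mean of 0.01. In L-428 ILMN_1734814 read 8.91, 8.76 and 8.97 with AEZS-136, against 9.22, 9.34 and 9.52 in the control. HSPH1, the third of this kind, was not called in any line, with changes of -0.003 in KM-H2, -0.26 in L-428, 0.05 in L-540 and -0.22 in SUP-HD1. HSPA14, an HSP70 that works at the ribosome, fell in L-540 (-0.46, SE 0.106, adjusted p = 0.00571 by limma), where it read 9.21, 9.09 and 9.12 with AEZS-136, against 9.70, 9.44 and 9.68 in the control. Its change was -0.40 in KM-H2, -0.14 in L-428 and -0.18 in SUP-HD1, and in L-540 with median scaling it was -0.38 (adjusted p = 0.388) and on the authors' values -0.37, neither called. Its responses were not shown to differ between lines (adjusted p = 0.363, F test in limma).

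The BAG proteins, which release nucleotide from HSP70, also held only falls. Of 10 tested probes of BAG1 to BAG5 and HSPBP1, 2 fell in each of the 4 lines, 3 fell in the mean, where 2.47% of all probes fell, and 0 rose. BAG3, which is induced by stress and links HSP70 to autophagy, had the lowest mean of all 93 probes. KM-H2 read 6.91, 7.04 and 7.15 with AEZS-136, against 8.01, 7.92 and 8.11 in the control, and L-428 read 7.78, 7.85 and 7.97 with AEZS-136, against 8.54, 8.73 and 8.78 in the control. L-540 read 8.09, 7.86 and 7.73 with AEZS-136, against 8.53, 8.61 and 8.56 in the control, and SUP-HD1 read 7.27, 7.29 and 7.40 with AEZS-136, against 8.87, 8.50 and 8.69 in the control. No treated array reached the lowest control array of its line. The changes were -0.98 ± 0.107 (SE, adjusted p = 1.57e-06) in KM-H2, -0.82 ± 0.107 (SE, adjusted p = 2.92e-05) in L-428, -0.67 ± 0.107 (SE, adjusted p = 1.70e-04) in L-540 and -1.37 ± 0.107 (SE, adjusted p = 3.74e-08) in SUP-HD1 by limma, and -0.96 ± 0.0533 (SE, adjusted p = 2.63e-11) in the mean. In SUP-HD1 the level was 2.58-fold lower with AEZS-136 than in the control. The mean was -0.97 (adjusted p = 3.70e-04) within export set 1 and -0.90 (adjusted p = 0.00217) within export set 2, and the L-540 change was -0.59 (adjusted p = 0.0815) with median scaling, no longer called. In KM-H2 the change was smaller at -0.62 on the authors' values and -0.65 without background correction, still called.

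BAG2, which inhibits the ubiquitin ligase CHIP, fell in L-540, where it read 7.15, 7.32 and 7.35 with AEZS-136, against 7.88, 7.44 and 8.17 in the control, and in SUP-HD1, where it read 7.73, 7.46 and 8.004 with AEZS-136, against 8.40, 8.40 and 8.02 in the control. The treated arrays lay below the controls in both lines by a small margin. The changes were -0.55 ± 0.166 (SE, adjusted p = 0.0338) in L-540, -0.54 ± 0.166 (SE, adjusted p = 0.0464) in SUP-HD1, -0.48 in KM-H2 and -0.27 in L-428, with -0.46 ± 0.0828 (SE, adjusted p = 2.38e-04) in the mean. The L-540 call ended without any 1 of 5 of its 6 arrays (-0.59 to -0.38), and the SUP-HD1 call without any 1 of 17 arrays (-0.54 to -0.41). With median scaling the mean was -0.38 (adjusted p = 0.0395), which missed the minimum change, and the changes were -0.46 (adjusted p = 0.457) in L-540 and -0.40 (adjusted p = 0.51) in SUP-HD1. On the authors' values all 3 calls ended, at -0.36 in L-540, -0.38 in SUP-HD1 and -0.31 in the mean. Within export set 2 the mean of BAG2 was -0.42 (adjusted p = 0.0925). The 2 probes of BAG4, a silencer of death receptor signalling, had different calls. ILMN_2221014, a dim probe, read 5.63, 5.46 and 5.13 with AEZS-136, against 6.57, 6.14 and 6.25 in the control in L-428 (-0.91, SE 0.262, adjusted p = 0.0308 by limma) and was called in the mean (-0.62, SE 0.131, adjusted p = 0.00113), whereas ILMN_1727996 was called in KM-H2 (-0.43, SE 0.142, adjusted p = 0.0471) and had a mean of -0.19. The L-428 call ended without any 1 of 4 of its arrays (-0.95 to -0.77) and the KM-H2 call without any 1 of 17 arrays (-0.48 to -0.34). Within export set 2 the mean of ILMN_2221014 was -0.40 (adjusted p = 0.251). All 3 BAG4 calls ended on the authors' values, at -0.34 in L-428 and -0.23 in the mean for ILMN_2221014 and -0.29 in KM-H2 for ILMN_1727996, which was -0.21 (adjusted p = 0.762) with median scaling. BAG1 (mean 0.07) and the 3 probes of BAG5 (means -0.11, -0.02 and -0.07) were not called.

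**Figure D3:**
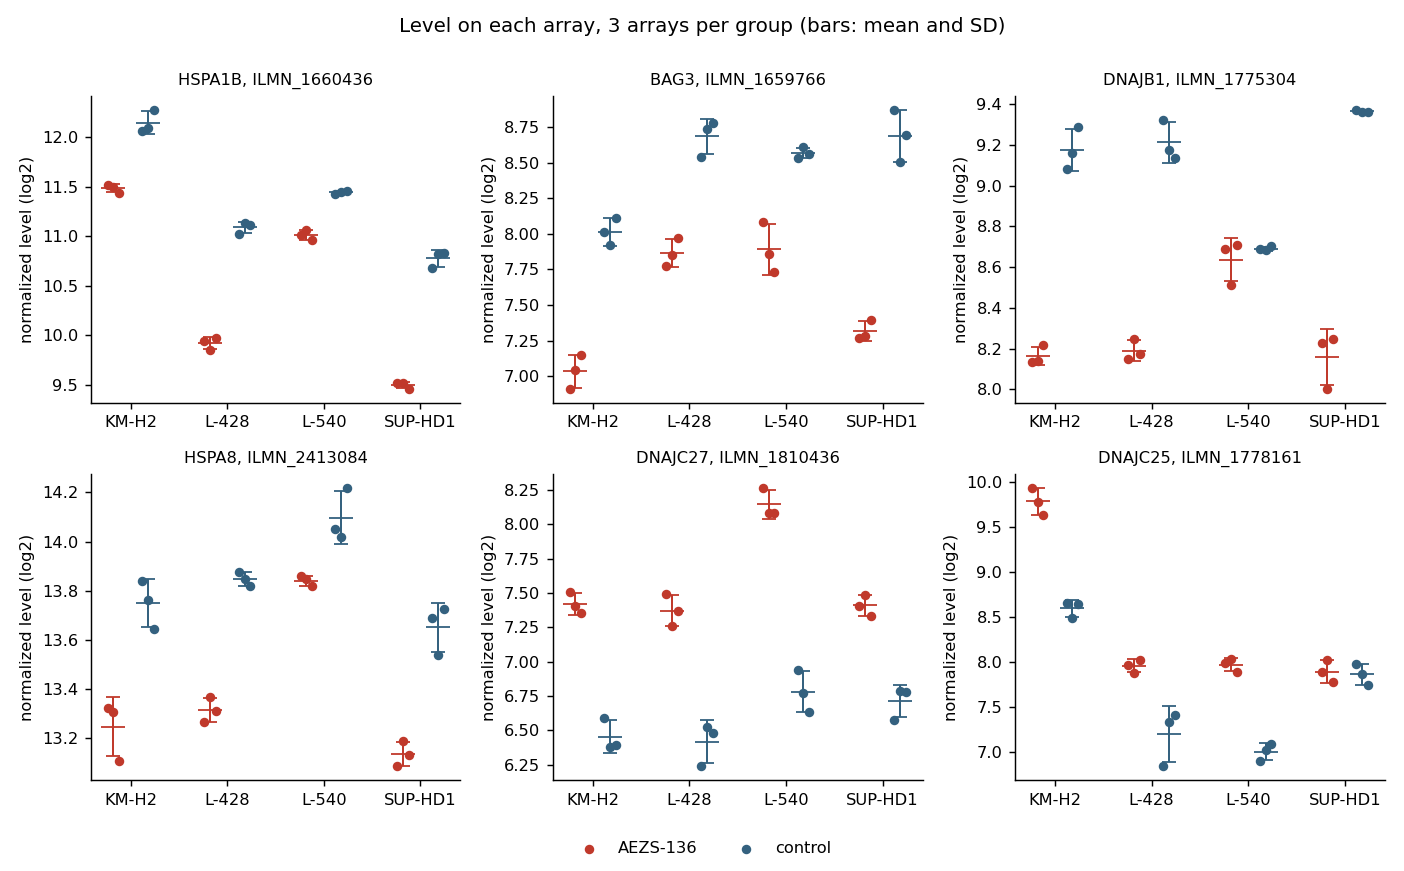
Normalized log2 level (y axis, a separate scale for each probe) of HSPA1B, BAG3, DNAJB1, HSPA8, DNAJC27 and DNAJC25 on each of 24 arrays by cell line (x axis), AEZS-136 in red left of its control in blue, with the mean and SD of 3 arrays. Red points lie below blue ones for HSPA1B, BAG3 and HSPA8 in all 4 lines and for DNAJB1 in all but L-540, and above them for DNAJC27 in all 4 lines and for DNAJC25 in all but SUP-HD1.

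J proteins were called in both directions. In the mean of lines 0 of 3 DNAJA probes were called (2 had an unadjusted p under 0.05, and the authors' values called 1). The methods' t-test, run within lines only, called 1 DNAJA probe in KM-H2. In the mean, 1 of 17 DNAJB probes fell and 2 rose, and 1 of 30 DNAJC probes fell and 2 rose. There 2.47% of all probes fell and 4.22% rose, a share to which the DNAJC counts are close. Of all 24578 tested probes 6140 had an adjusted p under 0.05 in the mean by limma. DNAJB1, the main stress-inducible partner of HSP70, fell in 3 lines. KM-H2 read 8.13, 8.14 and 8.22 with AEZS-136, against 9.08, 9.16 and 9.29 in the control. L-428 read 8.15, 8.25 and 8.17 with AEZS-136, against 9.32, 9.18 and 9.14 in the control, and SUP-HD1 read 8.23, 8.003 and 8.25 with AEZS-136, against 9.37, 9.36 and 9.36 in the control. Treated and control arrays were far apart in these 3 lines. L-540 read 8.69, 8.51 and 8.71 with AEZS-136, against 8.69, 8.68 and 8.70 in the control, with the groups overlapping. The changes were -1.01 ± 0.084 (SE, adjusted p = 4.36e-08) in KM-H2, -1.02 ± 0.084 (SE, adjusted p = 8.49e-08) in L-428, -0.05 ± 0.084 (SE, adjusted p = 0.79) in L-540 and -1.21 ± 0.084 (SE, adjusted p = 8.99e-09) in SUP-HD1 by limma. The L-540 control was also the lowest of the 4 controls, at 8.69 ± 0.0093 (SD, n = 3), against 9.17 ± 0.1 in KM-H2, 9.21 ± 0.099 in L-428 and 9.36 ± 0.007 in SUP-HD1. In the mean the change was -0.82 ± 0.042 (SE, adjusted p = 6.60e-12), and it was -0.78 (adjusted p = 7.88e-04) within export set 1 and -0.87 (adjusted p = 0.00114) within export set 2.

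DNAJA1, a J protein that also acts with HSP70 in the cytosol, fell in KM-H2, where it read 12.81, 12.74 and 12.77 with AEZS-136, against 13.27, 13.18 and 13.23 in the control, and in L-540, where it read 12.13, 12.06 and 12.15 with AEZS-136, against 12.68, 12.70 and 12.47 in the control. Treated arrays lay below controls in all 4 lines, with changes of -0.45 ± 0.0772 (SE, adjusted p = 3.05e-04) in KM-H2, -0.28 ± 0.0772 in L-428, -0.50 ± 0.0772 (SE, adjusted p = 1.24e-04) in L-540 and -0.36 ± 0.0772 in SUP-HD1. The L-428 and SUP-HD1 changes and the mean (-0.40) missed the minimum change. With median scaling neither call was made, at -0.40 (adjusted p = 0.247) in KM-H2 and -0.44 (adjusted p = 0.244) in L-540. DNAJA2 and DNAJA4 were not called, with means of -0.17 and 0.01.

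Calls upward in the DNAJB family were of DNAJB2, DNAJB12 and DNAJB14. DNAJB2, a J protein that binds ubiquitylated clients, rose on ILMN_2390974 in L-428, L-540 and SUP-HD1. Its values were 10.46, 10.41 and 10.49 with AEZS-136, against 10.07, 9.99 and 10.04 in the control in L-428. In L-540 they were 8.98, 9.11 and 9.12 with AEZS-136, against 8.50, 8.60 and 8.31 in the control, and in SUP-HD1 they were 10.43, 10.46 and 10.42 with AEZS-136, against 10.04, 9.78 and 10.05 in the control. No treated array overlapped a control array in any of the 4 lines. The changes were 0.42 ± 0.0888 (SE, adjusted p = 0.00365) in L-428, 0.60 ± 0.0888 (SE, adjusted p = 8.62e-05) in L-540, 0.48 ± 0.0888 (SE, adjusted p = 0.00121) in SUP-HD1 and 0.31 in KM-H2 (not called), with a mean of 0.45 ± 0.0444 (SE, adjusted p = 1.23e-07) by limma. Without control replicate 2 the change was 0.40 in L-428 and 0.39 in SUP-HD1, below the minimum. The other probe, dim on most arrays, had a mean of 0.02. Within export set 2 the mean of ILMN_2390974 was 0.37 (adjusted p = 0.0191), and it was 0.39 on the authors' values and 0.40 without background correction, each below the minimum. The L-428 change was 0.27 (adjusted p = 0.6) with median scaling and 0.38 on the authors' values, and the SUP-HD1 change was 0.63 (adjusted p = 0.0654) with median scaling, none called.

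DNAJB12, a J protein of the endoplasmic reticulum membrane, rose on ILMN_2333865 in KM-H2 and L-540. KM-H2 read 8.20, 8.17 and 8.28 with AEZS-136, against 7.77, 7.77 and 7.66 in the control, and L-540 read 7.40, 7.73 and 7.64 with AEZS-136, against 7.08, 7.08 and 6.79 in the control. The groups were apart in both lines and in L-428, with changes of 0.48 ± 0.136 (SE, adjusted p = 0.0191) in KM-H2, 0.61 ± 0.136 (SE, adjusted p = 0.00473) in L-540 and 0.48 ± 0.0681 (SE, adjusted p = 1.66e-05) in the mean. The changes in L-428 (0.40) and SUP-HD1 (0.43) were not called. Of the 3 other tested probes of the gene, ILMN_1712929 was called in KM-H2 (0.49, SE 0.131, adjusted p = 0.0135), and their means were 0.16, 0.10 and 0.19. In KM-H2 leaving out control replicate 3 or AEZS-136 replicate 3 ended both calls (0.42 to 0.46 on ILMN_1712929), as leaving out AEZS-136 replicate 1 did for ILMN_2333865 (0.49). The mean of ILMN_2333865 lost its call at 0.31 on the authors' values and 0.32 without background correction, as did KM-H2 (0.34) and L-540 (0.37) on the authors' values, KM-H2 with median scaling (0.66, adjusted p = 0.0771), and ILMN_1712929 at 0.18 on the authors' values and 0.20 without background correction. Its relative DNAJB14 was called in KM-H2, on ILMN_1657619 (7.39, 7.51 and 7.42 with AEZS-136, against 6.63, 6.58 and 6.85 in the control) and on ILMN_2415898, by 0.75 ± 0.124 (SE, adjusted p = 2.16e-04) and 0.55 ± 0.0898 (SE, adjusted p = 1.97e-04). For ILMN_1657619 treated arrays also lay above controls in L-428 (0.28) and L-540 (0.39), whereas in SUP-HD1 the change was -0.17. ILMN_2415898 changed by 0.40 ± 0.0898 (SE, adjusted p = 0.0048) in L-540, just short of the minimum. The KM-H2 change of ILMN_1657619 was 0.40 on the authors' values and 0.44 without background correction, the first below the minimum. The third DNAJB14 probe had 0.16 in KM-H2.

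The highest mean of all 93 probes was that of DNAJC27, a Rab-like small GTPase that carries a J domain. KM-H2 read 7.51, 7.41 and 7.35 with AEZS-136, against 6.59, 6.38 and 6.40 in the control, and L-428 read 7.49, 7.26 and 7.37 with AEZS-136, against 6.24, 6.53 and 6.48 in the control. L-540 read 8.27, 8.09 and 8.08 with AEZS-136, against 6.94, 6.78 and 6.63 in the control, and SUP-HD1 read 7.41, 7.49 and 7.33 with AEZS-136, against 6.58, 6.79 and 6.78 in the control. Every treated array was above every control array of its line. The changes were 0.97 ± 0.104 (SE, adjusted p = 1.39e-06) in KM-H2, 0.96 ± 0.104 (SE, adjusted p = 3.21e-06) in L-428, 1.36 ± 0.104 (SE, adjusted p = 1.47e-08) in L-540 and 0.70 ± 0.104 (SE, adjusted p = 1.51e-04) in SUP-HD1 by limma. The mean was 0.996 ± 0.0522 (SE, adjusted p = 1.03e-11), and it was 0.94 (adjusted p = 3.48e-04) within export set 1 and 1.08 (adjusted p = 0.00161) within export set 2. It was smaller, and still called, at 0.56 on the authors' values and 0.59 without background correction. On the authors' values the changes were 0.49 in KM-H2, 0.51 in L-428, 0.86 in L-540 and 0.40 in SUP-HD1, the last just below the minimum.

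DNAJC25, a little-studied J protein of membranes, rose in 3 lines. KM-H2 read 9.93, 9.78 and 9.63 with AEZS-136, against 8.65, 8.49 and 8.64 in the control. L-428 read 7.97, 7.88 and 8.03 with AEZS-136, against 6.84, 7.34 and 7.42 in the control, and L-540 read 7.99, 8.04 and 7.89 with AEZS-136, against 6.91, 7.02 and 7.09 in the control. The groups were apart in these lines. SUP-HD1 read 7.89, 8.02 and 7.78 with AEZS-136, against 7.98, 7.86 and 7.75 in the control, with the groups overlapping. The changes were 1.19 ± 0.123 (SE, adjusted p = 8.49e-07) in KM-H2, 0.76 ± 0.123 (SE, adjusted p = 3.15e-04) in L-428, 0.96 ± 0.123 (SE, adjusted p = 1.52e-05) in L-540 and 0.03 ± 0.123 (SE, adjusted p = 0.938) in SUP-HD1, and 0.73 ± 0.0616 (SE, adjusted p = 1.33e-08) in the mean. With median scaling the L-428 change was 0.64 (adjusted p = 0.11), no longer called. On the authors' values the changes were smaller in L-428 (0.49) and L-540 (0.61), both still called. A probe annotated to DNAJC25-GNG10, a readthrough of this gene into its neighbour GNG10, was lower in KM-H2 (-0.61, SE 0.194, adjusted p = 0.0383 by limma), where its probe read 5.997, 5.48 and 5.69 with AEZS-136, against 6.49, 6.10 and 6.41 in the control. Its call ended without any 1 of 4 of the 6 KM-H2 arrays (-0.59 to -0.49), and it was -0.41 (adjusted p = 0.314) with median scaling and -0.24 on the authors' values, neither called. Its changes in the other lines were -0.54 in L-428, -0.29 in L-540 and 0.15 in SUP-HD1. A readthrough shares sequence with both genes, so which transcript this probe reads was not tested.

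DNAJC17, a J protein of the spliceosome, fell in KM-H2 and L-540. KM-H2 read 6.28, 6.44 and 6.35 with AEZS-136, against 7.16, 7.16 and 6.99 in the control, and L-540 read 6.57, 6.67 and 6.51 with AEZS-136, against 7.42, 7.37 and 7.27 in the control. The groups were apart in both, with changes of -0.75 ± 0.118 (SE, adjusted p = 1.32e-04) in KM-H2 and -0.77 ± 0.118 (SE, adjusted p = 1.27e-04) in L-540, while L-428 had -0.24 and SUP-HD1 -0.05. The mean was -0.45 ± 0.0589 (SE, adjusted p = 5.53e-06) and fell short of the minimum with median scaling (-0.35, adjusted p = 0.00607), and at -0.24 on the authors' values and -0.25 without background correction. The KM-H2 call ended with median scaling (-0.51, adjusted p = 0.0901) and on the authors' values (-0.39), and L-540 was smaller on those values (-0.43). DNAJC24, an enzyme partner in the synthesis of diphthamide, rose in L-428, where it read 7.96, 7.97 and 7.68 with AEZS-136, against 7.35, 7.37 and 7.21 in the control, and in L-540, where it read 8.86, 8.81 and 8.99 with AEZS-136, against 8.46, 8.40 and 8.29 in the control. The changes were 0.56 ± 0.101 (SE, adjusted p = 9.93e-04) in L-428 and 0.51 ± 0.101 (SE, adjusted p = 0.00171) in L-540, with 0.20 in KM-H2 and 0.03 in SUP-HD1. Both calls ended on the authors' values, at 0.36 in L-428 and 0.39 in L-540, and that of L-428 with median scaling (0.45, adjusted p = 0.19). Both probes of DNAJC30, a mitochondrial J protein, rose in KM-H2, where ILMN_3246801 read 6.49, 6.74 and 6.71 with AEZS-136, against 6.15, 6.34 and 6.26 in the control. Both changes were 0.40, just above the minimum, and each call ended without any 1 of 3 or 4 arrays (0.36 to 0.37 and 0.35 to 0.41). On the authors' values they were 0.25 and 0.16, and ILMN_1771824 was 0.58 (adjusted p = 0.0533) with median scaling, none called.

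The other DNAJC calls were in a single line each. DNAJC5B, a cysteine string protein, fell in L-428 (-0.99, SE 0.226, adjusted p = 0.00674 by limma), where it read 8.03, 8.18 and 7.90 with AEZS-136, against 8.88, 9.22 and 8.98 in the control, and its changes in the other lines lay between -0.51 in KM-H2 and 0.32 in L-540. It was detected on 1 of 3 treated and 0 of 3 control arrays of L-540. DNAJC11, a protein of the mitochondrial cristae, fell in L-428 (-0.59, SE 0.14, adjusted p = 0.00894) and kept no call without control replicate 1 (-0.46) or AEZS-136 replicate 3 (-0.51), with median scaling (-0.64, adjusted p = 0.0558) or on the authors' values (-0.24). One of 4 probes of DNAJC12, a partner of the aromatic amino acid hydroxylases, fell in KM-H2 (-0.42, SE 0.12, adjusted p = 0.0187) and kept no call without any 1 of 4 arrays (-0.43 to -0.38), with median scaling (-0.22, adjusted p = 0.682) or on the authors' values (-0.29). Its probe ILMN_2269256 was not called, with treated arrays below controls in KM-H2 (-0.28), L-428 (-0.31) and SUP-HD1 (-0.33), where it read 8.52, 8.50 and 8.41 with AEZS-136, against 8.73, 8.79 and 8.90 in the control. DNAJC14, which helps receptors leave the endoplasmic reticulum, likewise was not called and was below its controls in L-428 (-0.36), L-540 (-0.20) and SUP-HD1 (-0.14). In L-428 it read 9.01, 8.93 and 9.03 with AEZS-136, against 9.43, 9.32 and 9.32 in the control.

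HSPBAP1, which the name rule brought in, rose in all 4 lines. KM-H2 read 6.69, 6.69 and 6.59 with AEZS-136, against 6.16, 5.90 and 5.89 in the control, and L-428 read 5.65, 5.69 and 5.91 with AEZS-136, against 4.88, 4.80 and 5.32 in the control. L-540 read 7.98, 7.98 and 7.75 with AEZS-136, against 7.21, 7.46 and 7.60 in the control, and SUP-HD1 read 7.69, 7.58 and 7.49 with AEZS-136, against 7.004, 6.82 and 6.77 in the control. No group overlapped its control. The changes were 0.67 ± 0.131 (SE, adjusted p = 0.00113) in KM-H2, 0.75 ± 0.131 (SE, adjusted p = 6.78e-04) in L-428, 0.48 ± 0.131 (SE, adjusted p = 0.019) in L-540, 0.72 ± 0.131 (SE, adjusted p = 0.00105) in SUP-HD1 and 0.66 ± 0.0655 (SE, adjusted p = 1.57e-07) in the mean by limma. The L-540 call ended without control replicate 1 (0.38), AEZS-136 replicate 1 (0.44) or AEZS-136 replicate 2 (0.44). The mean was 0.31 on the authors' values and 0.33 without background correction, below the minimum change, as were KM-H2 (0.27), L-428 (0.24) and L-540 (0.32) on the authors' values, where SUP-HD1 kept its call (0.43). With median scaling the calls in L-428 (0.67, adjusted p = 0.0546) and L-540 (0.63, adjusted p = 0.0557) ended.

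**Figure D4:**
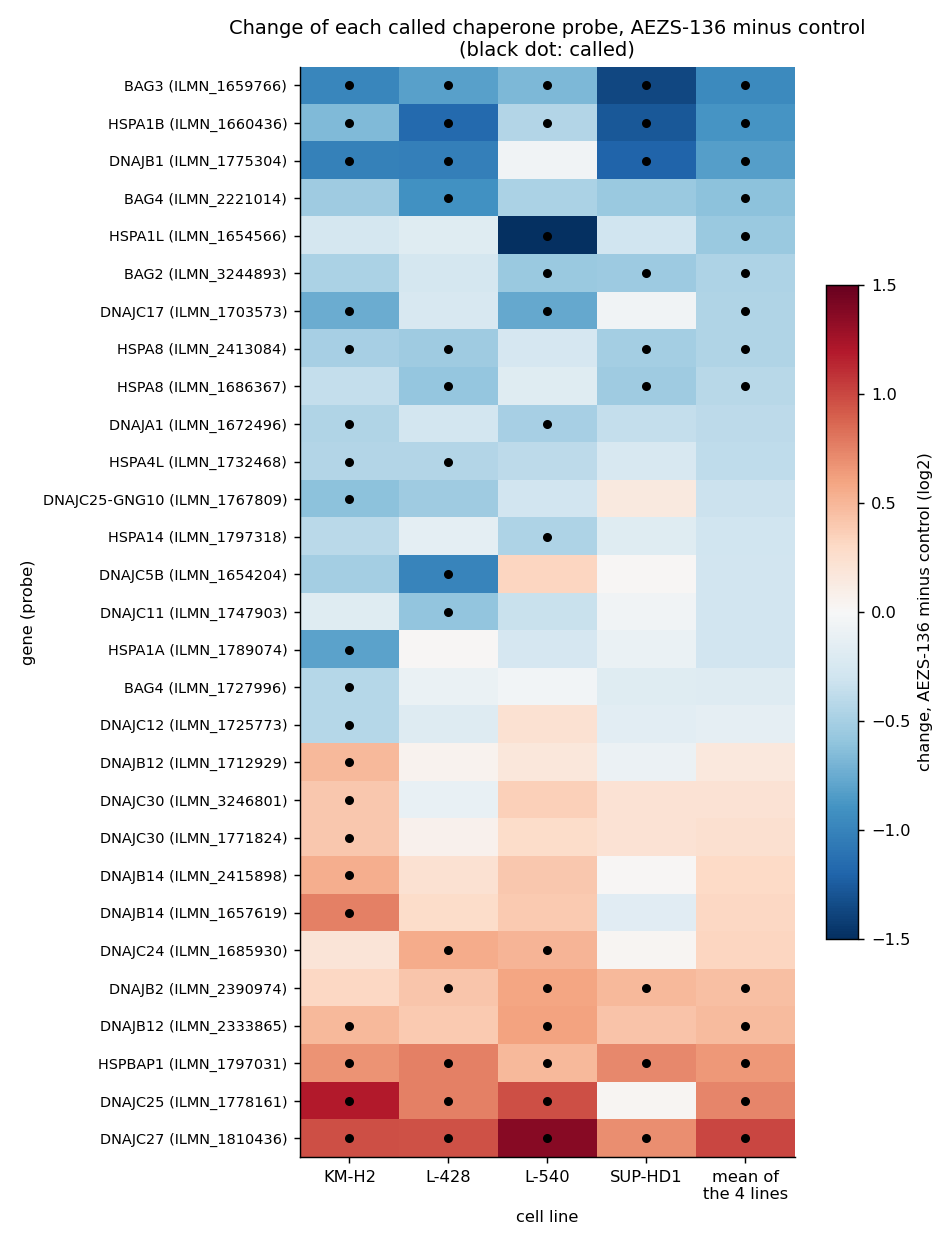
Changes (colour, log2, AEZS-136 minus control; red higher and blue lower with AEZS-136) of every member probe called in at least 1 line, sorted by the mean of the 4 lines, with a black dot where the change was called. The 18 falling probes stand above the 11 rising ones, and BAG3, HSPA1B, DNAJC27 and HSPBAP1 carry a dot in every column.

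Across lines, 4 member probes fell in at least 3 lines (4.30% of the members, against 1.18% of all probes), namely HSPA1B, BAG3, DNAJB1 and HSPA8, and 2 of them, HSPA1B and BAG3, fell in all 4 (2.15%, against 0.387%). In the other direction 4 rose in at least 3 lines (4.30%, against 2.25% of all probes), namely DNAJC27, HSPBAP1, DNAJC25 and DNAJB2, and 2 rose in all 4 (2.15%, against 0.814%).

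The HSP90 genes, the chaperonin and the small heat shock proteins had no call, which for so few probes is near the share of all probes called (6.69% in the mean and 6.54% to 11.2% by line). HSP90AA1, which is inducible, and HSP90AB1, its constitutive partner, had 4 tested probes and 0 calls by limma in any line or the mean, with 0 of 4 at an unadjusted p under 0.05 in any of them. Changes lay between -0.20 and 0.15 in single lines. HSP90AB1 read 12.55, 12.49 and 12.59 with AEZS-136, against 12.45, 12.62 and 12.39 in the control in KM-H2 and 12.85, 12.67 and 12.78 with AEZS-136, against 12.98, 12.83 and 12.76 in the control in L-428. L-540 read 12.51, 12.41 and 12.40 with AEZS-136, against 12.54, 12.52 and 12.83 in the control, and SUP-HD1 read 12.95, 13.14 and 13.07 with AEZS-136, against 12.98, 12.93 and 12.79 in the control. Its mean change was -0.02 ± 0.0484 (SE), and those of the 3 HSP90AA1 probes were 0.09, -0.05 and -0.03. Of 10 probes of HSPD1 and HSPE1 (the mitochondrial chaperonin and its lid), HSPA9, DNAJA3, DNAJC15 and DNAJC19, 0 were called (DNAJC11 and DNAJC30, with calls, were counted in the DNAJC family), with 2 at an unadjusted p under 0.05 in each of KM-H2, L-428 and the mean and 0 in L-540 and SUP-HD1, and means lay between -0.17 and 0.18. The 4 HSPD1 probes had means of -0.05, -0.01, -0.17 and -0.05, and the 2 HSPE1 probes had -0.01 and -0.14. HSPB1, or HSP27, stood at 12.98 ± 0.027 with AEZS-136 and 13.06 ± 0.046 in the control of KM-H2 (SD, n = 3), and its changes lay between -0.12 in L-428 and 0.11 in SUP-HD1, none called. With HSPB3, the only other small heat shock gene tested, 1 of 2 probes had an unadjusted p under 0.05 in KM-H2 and in L-540, and 0 elsewhere. The methods' t-test, run within lines only, and the authors' normalized values also gave 0 calls for these 3 families. Of all 24578 tested probes 6140 had an adjusted p under 0.05 in the mean by limma. HSP90AA1, HSP90AB1 and HSPD1 carry the strict heat shock element printed above, as do HSPA8 and DNAJA1, which were called, and HSPA6 and DNAJB6, which were not.

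The response of 11 member probes (11.8%) differed between lines by an F test in limma, against 7.62% of all probes. The smallest adjusted p was that of DNAJB1 (8.98e-06), which fell in all lines but L-540, followed by HSPA1B (4.66e-05), with its larger falls in L-428 and SUP-HD1. DNAJC25 (0.00105) was called in all lines but SUP-HD1, HSPA1L (0.00391) was called in L-540 alone, and DNAJC17 (0.0131) fell in KM-H2 and L-540. BAG3 (0.0239) and DNAJC27 (0.0356) moved the same way in every line but by different amounts. The other probes were HSPA1A (0.0186), both called probes of DNAJB14 (0.0135 and 0.0464) and DNAJC5B (0.0417). HSPA1A was detected in KM-H2 alone, so no fall could be read in the other lines. With median scaling DNAJB1 alone was called (adjusted p = 0.0279), and the others lay between 0.0779 for HSPA1L and 0.616 for ILMN_2415898 of DNAJB14. Leaving out 1 array ended the call of BAG3 in 4 of 24 cases, DNAJC27 in 10, DNAJC5B in 15, HSPA1A in 3 and ILMN_2415898 in 20, and of the other 6 probes in 0. It brought the count to between 7 and 12, with 7 called without SUP-HD1 control replicate 3 or without SUP-HD1 AEZS-136 replicate 1.

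**Figure D5:**
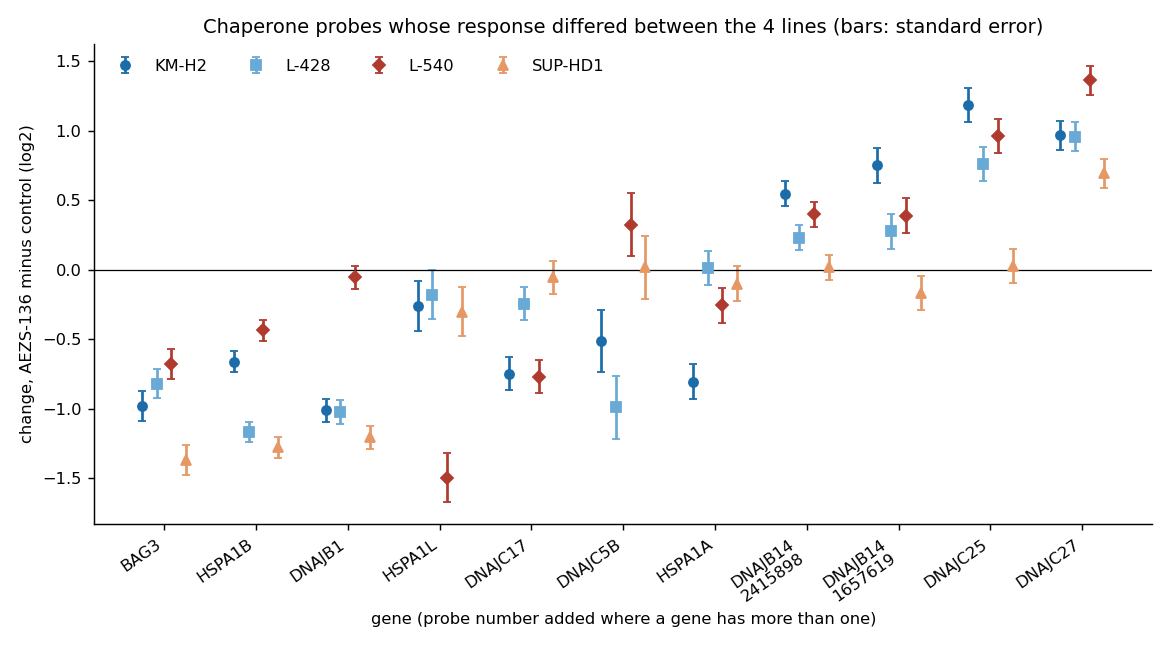
Change with AEZS-136 (y axis, log2, AEZS-136 minus control, with its standard error) in each of the 4 lines for the 11 probes whose response differed between lines, by gene (x axis). The L-540 diamond of DNAJB1 lies at -0.05 with the other lines at -1.01 or below, that of HSPA1L lies at -1.50 with the other lines at -0.30 or above, and the SUP-HD1 triangle of DNAJC25 lies at 0.03 with the other lines at 0.76 or above.

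The comparison of the classes asks whether the resistant and sensitive pairs responded differently. The resistant lines KM-H2 and L-428 differed from the sensitive lines L-540 and SUP-HD1 in 3 member probes (3.23%, against 2.1% of all probes). The change in the resistant lines minus that in the sensitive lines was 0.48 for DNAJC25 (adjusted p = 0.0425), -0.92 for DNAJC5B (adjusted p = 0.0318) and 0.68 for HSPA1L (adjusted p = 0.0451). By line, DNAJC25 was called in all but SUP-HD1, HSPA1L in L-540 alone and DNAJC5B in L-428 alone. HSPA1L was not detected in KM-H2 and DNAJC5B hardly in L-540, so a fall could hardly be read there. With median scaling 0 were called, and leaving out 1 array gave between 0 and 4, with 0 called in 7 of the 24 cases and 1 in 8 more.

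The control levels themselves differed between lines for 79 of 93 probes (84.9%, against 75.1% of all probes, F test in limma). Of all members HSPA1A differed most, at 11.08 ± 0.16 in KM-H2 and between 4.51 and 4.72 in the others, where it was not detected. HSPA6, a strictly inducible HSP70, was likewise highest in KM-H2 on ILMN_1806165, at 9.28 ± 0.0077 with AEZS-136 and 9.21 ± 0.15 in the control, against control levels between 4.83 and 5.35 in the other lines. HSPB1 was higher in the KM-H2 and SUP-HD1 controls (13.06 ± 0.046 and 12.25 ± 0.096) than in L-428 and L-540 (11.05 ± 0.23 and 10.30 ± 0.033). HSPH1 was highest in L-540, at 13.36 ± 0.19, against 11.51 to 11.86 elsewhere.

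Genes of the same pathway outside the name rule were mostly not called. Most tested probes were not called either, with 6.69% called in the mean (4.22% up and 2.47% down) and 6.54% to 11.2% by line. In the mean 6140 of all 24578 tested probes had an adjusted p under 0.05 by limma. The share at an unadjusted p under 0.05, not given here, is at least as large. Of 6 HSF genes and partners 4 were measured, with 0 called by limma in any line, 1 of 5 probes at an unadjusted p under 0.05 in the mean, and HSF1 at 0.04 in the mean. HSF2 was not analysed here. Of 22 other cochaperones of HSP90 and HSP70, 21 were measured and 0 were called in the mean, with 8 of 26 probes at an unadjusted p under 0.05 there. In single lines 3 rose and 1 fell, each in 1 line. Of 14 genes of the CCT chaperonin and prefoldin, 1 rose in KM-H2 and 0 were called in the mean, with 5 of 22 probes at an unadjusted p under 0.05. Of 12 measured genes among 15 others that heat induces, JUN, an immediate early transcription factor, rose in KM-H2, L-428 and L-540 and in the mean (0.47), beside HSPBAP1, which is in both lists. Of 12 chaperones of the endoplasmic reticulum, HSPA5 rose in KM-H2 and HYOU1 in SUP-HD1, and 0 were called in the mean, with 3 of 15 probes at an unadjusted p under 0.05. By the methods' t-test, run within lines only, 0 probes of the HSF, cochaperone and CCT lists were called in any line. The medians of these 5 lists in the mean lay between -0.09 and 0.06, against -0.01 for all probes.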

How the data were processed

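RNA of the 8 groups was hybridised to 24 Illumina bead arrays. The deposited intensity of each probe was summarised in BeadStudio by the authors, without normalization, beside a deposited score equal to 1 minus its detection p. The authors also deposited log2 values after robust spline normalization in lumi, used here as an alternative. In the table of signals, a run of 3270 rows was out of register and was left out, and it holds no member. Their order of arrays gave 2 export sets of 12 arrays, each group having arrays in both.

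Signals were corrected by normexp, with an offset of 16, and quantile-normalized (neqc in limma 3.58.1, R 4.3.3). The detection filter (p under 0.05, 3 or more arrays) left 24578 probes. A model of 8 group means was fitted over 24 arrays with 16 residual degrees of freedom, and contrasts were taken per line, over the mean of lines, between classes, and as F tests. A call needed an adjusted p under 0.05, over all kept probes, and an absolute change over 0.4. All 119 member probes matched RefSeq by Entrez gene, and no symbol differed. Probes of 1 gene were kept apart. Probe sequences were not used. The procedure was tested on simulated data.

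Named are all member probes called in a line or in the mean, those in full that were called in the mean or did not overlap their controls in at least 3 lines, and a set of main heat shock genes whatever their values. The members, lists and rules were chosen with earlier results of these data known. Alternatives were other normalizations, filters, blocks, export sets, single-line fits, a t-test as in the methods, 1 probe per gene and leaving out each array. The table of detection in marker genes covered Hodgkin, B, T, myeloid and stromal cells. Of 5 B cell markers on the array 0 to 3 were detected on all 3 arrays of a group. The counts were 0 to 3 of 4 T cell markers, 1 to 3 of 4 myeloid markers and 0 to 1 of 5 stromal or epithelial markers. Both KM-H2 groups had 3 T cell markers (CD3D, CD2 and CD247), 3 myeloid markers (CD14, CSF1R and ITGAM) and 3 B cell markers (CD79A, CD79B and CD22).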

Additional observations from a re-analysis of the deposited data

Results flagged for a closer look

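Results are given here because the response differed between lines or classes by a test of that difference in limma. Groups of 3 arrays are too small for a test of single outlying arrays. By the F test over lines the adjusted p was 8.982e-06 for DNAJB1, 4.664e-05 for HSPA1B, 0.00105 for DNAJC25, 0.003907 for HSPA1L, 0.01308 for DNAJC17, 0.01352 and 0.04638 for 2 probes of DNAJB14, 0.01865 for HSPA1A, 0.02387 for BAG3, 0.03564 for DNAJC27 and 0.04172 for DNAJC5B. Between classes, the response of KM-H2 and L-428 minus that of L-540 and SUP-HD1 was 0.4774 for DNAJC25, -0.9217 for DNAJC5B and 0.6779 for HSPA1L on the log2 scale. HSPA1A was detected in KM-H2 alone, so no fall could be read in the other lines. Its F test cannot decide whether the responses differ. HSPA1L was detected on 0 of 6 KM-H2 arrays and DNAJC5B on 1 of 6 L-540 arrays, so a fall there could hardly be read. The part of dim signals in the differences of HSPA1L and DNAJC5B was not tested.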

How the results depend on the processing

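Of 73 called changes of member probes 0 changed sign under any alternative. Counts of called members were 20 in KM-H2, 14 in L-428, 13 in L-540 and 9 in SUP-HD1. Median scaling gave, in this order, 12, 8, 7 and 5, and the methods' t-test 12, 4, 5 and 5. Calls over all 24578 probes also dropped, from 2758, 1788, 2227 and 1608. They were 1872, 658, 1123 and 562 with median scaling, and 1143, 303, 526 and 468 by the t-test. The authors' normalized values gave 9, 8 and 8 members in the first 3 lines (1173, 721 and 925 of all probes). Quantile normalization without background correction gave 10 in KM-H2 and 8 in L-428 (1275 and 773 of all probes). Within an export set each group kept only 1 or 2 arrays, so counts of calls were not compared there. For the mean of lines (14) the member count was 7 without background correction, 8 on the authors' values and 31 with no minimum change. Over all probes (1645) it was 563, 521 and 6140. Between classes (3) the member count was 0 with median scaling and with the replicate block, and 1 with no detection filter or with detection on all 24 arrays. Over all probes (515) it was 81, 312, 443 and 325. For differences between lines (11) the member count was 1 with median scaling and 5 with the replicate block. Over all probes (1874) it was 354 and 965. The loose heat shock element was in 23 genes, the strict one in 7. Leaving out 1 array gave 14 to 21 in KM-H2, 11 to 15 in L-428, 12 to 14 in L-540, 8 to 11 in SUP-HD1, 14 to 16 in the mean, 0 to 4 between classes, 7 to 12 between lines and 77 to 81 for control levels. Replicate numbers were not shown to pair arrays. Correlations of same-numbered arrays were 0.0346 to 0.0959 when both arrays were in the same export set. They were -0.178 to -0.00176 when the arrays were in different sets. With replicate numbers as a block the counts were 17, 13, 12 and 8 by line, 14 in the mean and 72 for control levels. The cause of these shifts was not tested. Signals near background limit HSPA1L, DNAJC5B and BAG4.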
